A study of Mus musculus with 12 samples.

Results

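RNA of the adrenal cortex was compared between 4 mice on a high-fat diet (HFD) with icosapent ethyl and 4 mice on a HFD alone, which are 8 of the 12 mice sequenced in the study. All genes with enough counts in these mice entered the comparison, which were 15913 of the 49585 listed. The mice were chosen by diet label only, not by any measured value. The animals were male C57BL/6J mice, 6 weeks of age at the start, that ate a HFD with 60% of its energy from fat for 20 weeks. In the treated group, icosapent ethyl was mixed into this food over the last 10 weeks. The remaining 4 mice ate a low-fat diet (LFD) with 10% of its energy from fat and serve here only as a reference level. The labels give the genotype Fads2-/- for all 12 mice, whereas the methods describe wild-type animals, so both groups carry the same label. Each mouse gave 1 library, and the replicates are separate mice by their labels.

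Icosapent ethyl is the ethyl ester of eicosapentaenoic acid (EPA), a long-chain omega-3 polyunsaturated fatty acid (PUFA). PUFAs are made from dietary precursors by the desaturases FADS1 and FADS2 and by elongases, are activated to acyl-CoA by enzymes such as ACSL4, and are built into phospholipids by acyltransferases such as LPCAT3. The adrenal cortex turns cholesterol into aldosterone in its zona glomerulosa and into corticosterone in its zona fasciculata. Adrenocorticotropic hormone (ACTH), which acts through cAMP, drives corticosterone synthesis. Angiotensin II, which acts through calcium, drives aldosterone synthesis. The comparison asks whether EPA in the food changes the transcripts of this tissue in mice that are already on a HFD.

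*Fads2*, the targeted gene of the labelled genotype, lies at chr19:10062765-10101746 in GRCm38. It was expressed at 727, 1269, 2047, and 2140 CPM in HFD mice 1 to 4, where CPM is the count of a gene relative to the TMM-scaled library size (the usual unit of edgeR). In icosapent ethyl–treated mice 1 to 4, it stood at 1100, 579, 885, and 1664 CPM. *Fads2* transcript was thus present in each of the 8 mice, against the knockout label. A count over the whole gene does not show which exons the reads came from.

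Counts on genes summed to between 43819152 and 51563705 in HFD mice and between 34785979 and 67295963 in icosapent ethyl–treated mice. Each library had counts in 20812 to 21634 of the 49585 genes listed. Mitochondrially encoded genes held 1.84% to 3.23% of these counts, and the 10 most abundant genes of a library held 8.53% to 11.9%. No pair of the 28 pairs of libraries agreed within counting noise (lowest chi-square per degree of freedom 26.5). The labelled tissue was checked against its markers. The zona fasciculata list summed to 14432 to 25014 CPM in HFD mice and 14131 to 22480 CPM in treated mice, and markers of chromaffin cells, which belong to the adrenal medulla, summed to 3115 to 10028 CPM and 5552 to 11010 CPM. In such bulk samples, fewer cells of a type and less RNA per cell cannot be told apart.

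No gene passed the test between icosapent ethyl–treated and HFD mice. Of the 15913 genes tested with edgeR's quasi-likelihood test, 0 had an adjusted p below 0.05 (0%), and no Benjamini-Hochberg adjusted p was lower than 0.9997. Before adjustment, 107 genes were higher (0.672%) and 114 lower (0.716%) in treated mice at a p below 0.05. These 221 genes compare with the 796 that a level of 0.05 would give over this number of genes if all p-values were uniform. With the replicate number as a block, 0 genes had an adjusted p below 0.05 (lowest 0.487). Of the 15913 genes, 696 then had an unadjusted p below 0.05, of which 407 were higher and 289 lower. Counts of list members with the block are thus to be read beside these 696 genes, not beside the 221. The 4 treated mice lay above all 4 HFD mice in 77 genes (0.484%) and below all of them in 107 genes (0.672%). DESeq2 called 7 of 26076 genes (0.0268%) at the same threshold, 5 higher and 2 lower, and 400 genes at an unadjusted p below 0.05.

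The size of the differences was small for most genes. The median log2 fold change was 0.0040, the lowest and highest deciles were -0.21 and 0.33, and the absolute log2 fold change was above 1 in 98 genes. A gene that misses the threshold is not shown to be equal in both groups, so the 95% interval of each log2 fold change gives the size that these mice still allow. The interval lay within a 2-fold difference in either direction in 12470 genes (78.4%) and within a 1.5-fold difference in 8361 genes (52.5%). The median half-width of the interval was 0.43.

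The limits depended on the level of the gene. Among the 2532 genes with a mean below 1 CPM, 31.5% had an interval within 2-fold, with a median half-width of 0.87. Among the 4031 genes between 1 and 10 CPM, it was 72.9%, with a median half-width of 0.57. Among the 7258 genes between 10 and 100 CPM, 93.3% had an interval within 2-fold and 75.3% within 1.5-fold. Among the 2092 genes above 100 CPM, these shares were 93.8% and 82.2%. For abundant transcripts, differences of more than 2-fold thus fell outside nearly all intervals, whereas scarce transcripts could differ by more without being seen.

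**Figure D1:**
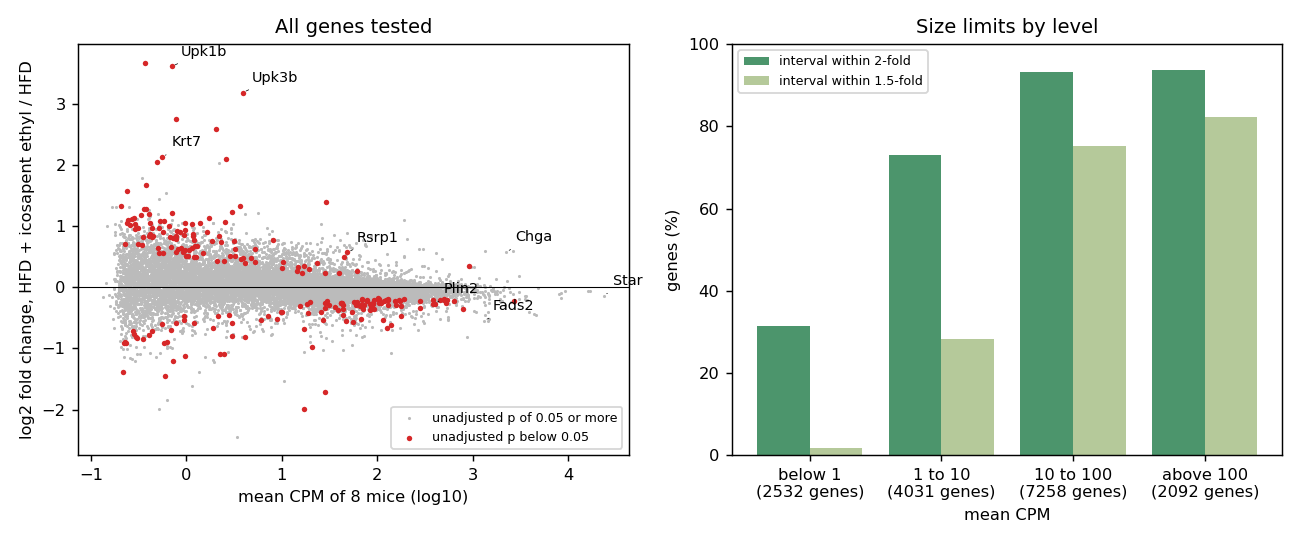
Left, log2 fold change of icosapent ethyl–treated over HFD mice against the mean CPM of the 8 mice (log10) for the 15913 genes tested, with the 221 genes at an unadjusted p below 0.05 in red. Right, percentage of genes at each level whose 95% interval lies within a 2-fold or a 1.5-fold difference; the share within 2-fold goes from 31.5% below 1 CPM to 93.8% above 100 CPM.

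The genes of lipid metabolism that the study names for this comparison are *Acsl4*, *Elovl2*, *Plin2*, and *Lpcat3*. It reports the first pair as up-regulated by icosapent ethyl and *Plin2* and *Lpcat3* as down-regulated. *Plin2*, which coats lipid droplets (chr4:86648386-86670060), was at 417, 448, 425, and 450 CPM in HFD mice and at 385, 400, 321, and 339 CPM in treated mice. All 4 treated mice were below all 4 HFD mice. This was a log2 fold change of -0.27 ± 0.089 (standard error, SE; interval -0.47 to -0.07), with an unadjusted p of 0.0148 by edgeR that did not pass the adjustment. In LFD mice, *Plin2* was at 314 ± 30.1 CPM (SD, n = 4).

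*Elovl2* encodes an elongase of long PUFAs (chr13:41182381-41220405). It was near the lower limit of counting, at 0.335, 0.171, 0.287, and 0.222 CPM in HFD mice and 0.365, 0.388, 0.555, and 0.460 CPM in treated mice. The groups did not overlap, with treated mice higher. Its log2 fold change of 0.82 ± 0.30 (SE) had an interval of 0.14 to 1.49 (edgeR, unadjusted p = 0.0227).

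*Lpcat3*, an acyltransferase that puts PUFAs into phospholipids (chr6:124663027-124704418), stood at 83.9, 98.4, 129, and 106 CPM in HFD mice. In treated mice, it stood at 76.2, 77.7, 79.0, and 94.7 CPM. Treated mouse 4 was within the range of the HFD mice, and the other 3 were below it. Over all 8 mice, *Lpcat3* gave -0.35 ± 0.14 (SE) on the log2 scale (interval -0.66 to -0.04, edgeR, unadjusted p = 0.0296).

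*Acsl4*, which activates arachidonic acid and related PUFAs (chrX:142317993-142390535), was at 567, 638, 839, and 873 CPM in HFD mice and 544, 447, 625, and 773 CPM in treated mice. The groups overlapped, and the log2 fold change of -0.29 ± 0.20 (SE) had an interval of -0.73 to 0.16. *Fads2*, whose values per mouse are given above, had -0.55 ± 0.39 (SE) and an interval of -1.44 to 0.34. *Fads1* (chr19:10182888-10196877) was at 886, 1310, 2235, and 2391 CPM in HFD mice and 1090, 813, 1121, and 1614 CPM in treated mice. In both desaturases, HFD mice 3 and 4 were the highest of the 8 mice, and HFD mouse 1 lay within the range of the treated mice. The interval of *Fads1* was -1.30 to 0.18 around a log2 fold change of -0.56. The lowest adjusted p over all the alternative fits was 0.853 or above for *Acsl4*, *Elovl2*, *Plin2*, *Lpcat3*, *Fads1*, and *Fads2*.

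The list of desaturases and elongation had 20 tested genes of 23, of which 5 were higher and 15 lower, with a median log2 fold change of -0.09. *Elovl2* was the member at an unadjusted p below 0.05, and 4 members were so with the replicate block. *Scd2*, a stearoyl-CoA desaturase, gave -0.15 ± 0.078 (SE). In phospholipid acyl remodelling, 5 of 20 genes were higher and 15 lower (median -0.05), and *Lpcat3* was the member at an unadjusted p below 0.05. *Mboat7*, which handles arachidonic acid in phosphatidylinositol, gave -0.13 ± 0.072 (SE).

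In the list of fatty acid uptake and activation, 4 of 15 tested genes were higher and 11 lower (median -0.11), with 1 at an unadjusted p below 0.05 and 2 with the replicate block. *Slc27a1*, a fatty acid transport protein, was at 192, 192, 205, and 223 CPM in HFD mice and 171, 176, 185, and 180 CPM in treated mice, without overlap (log2 fold change -0.19, edgeR, unadjusted p = 0.0325). *Acsl1*, a long-chain acyl-CoA synthetase, did not overlap either, at 80.8 to 95.2 CPM in HFD mice and 74.1 to 78.9 CPM in treated mice (-0.15, edgeR, unadjusted p = 0.073). Of lipid droplet and lipolysis genes, 4 of 21 were higher and 17 lower (median -0.11), with *Plin2* as the member at an unadjusted p below 0.05 and 3 members under the replicate block. *Lipe*, the hormone-sensitive lipase, gave -0.26 with an interval of -0.58 to 0.07.

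Most genes of the other lipid lists had a negative log2 fold change, and none was at an unadjusted p below 0.05. With the replicate block, 2 were in lipogenesis, 2 in fatty acid oxidation, 1 in eicosanoid synthesis, and 0 in sterol synthesis. In sterol synthesis and SREBP2 targets, 3 of 26 genes were higher and 23 lower (median -0.12). This median was -0.024 without HFD mouse 3 and -0.23 without HFD mouse 1. *Lss*, lanosterol synthase, gave -0.36 with an interval of -0.73 to 0.02. In lipogenesis and SREBP1, 2 of 16 were higher and 14 lower (median -0.13). *Acaca*, acetyl-CoA carboxylase, gave -0.23 with an interval of -0.52 to 0.06. In fatty acid oxidation and PPAR alpha targets, 14 of 39 were higher and 25 lower (median -0.04), with -0.30 for *Pdk4*, a pyruvate dehydrogenase kinase. In eicosanoid synthesis and receptors, 13 of 28 were higher and 15 lower (median -0.01). *Ptgs2*, the inducible cyclooxygenase, ranged from 5.72 to 162 CPM among treated mice alone.

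The steroid hormone synthesis list was measured in full, with 16 of 16 genes tested. Of these, 15 were lower and 1, *Nr0b1*, was higher in treated mice (median log2 fold change -0.13), and none had an unadjusted p below 0.05 (2 with the replicate block). The intervals of 11 genes lay within 2-fold and those of 6 within 1.5-fold. Without HFD mouse 3, the median of the list was -0.023, and without HFD mouse 1, it was -0.25. *Cyp11b2*, *Scarb1*, *Cyp11a1*, *Mc2r*, and *Mrap* kept their negative sign in all 19 alternative fits. The other lower genes and *Nr0b1* each turned sign in 1 or more of these fits.

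*Star*, which carries cholesterol into mitochondria (chr8:25806555-25815982), was at 12696, 19983, 35505, and 30059 CPM in HFD mice. In treated mice, it was at 19810, 11811, 25400, and 32299 CPM. The ranges of the groups were nearly the same. The log2 fold change was -0.14 ± 0.37 (SE), and its interval of -0.98 to 0.70 did not exclude a decrease of almost 2-fold. *Scarb1*, the receptor that takes up cholesterol esters from HDL, spread similarly, at 2511, 3194, 7142, and 7117 CPM in HFD mice and 2549, 2642, 3836, and 5790 CPM in treated mice (-0.43, interval -1.34 to 0.47).

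Most of the steroidogenic enzymes had narrower limits than *Star*. *Cyp11a1*, which cleaves the cholesterol side chain, gave -0.18 (interval -0.58 to 0.22), *Cyp21a1*, the 21-hydroxylase, gave -0.06 (-0.38 to 0.26), and *Cyp11b1*, which makes corticosterone, gave -0.11 (-0.49 to 0.26). *Hsd3b1* gave -0.06 (-0.36 to 0.23), and since *Hsd3b6* is a close paralog, reads that both share are uncertain for either. *Fdxr*, the reductase that feeds electrons to the mitochondrial enzymes, was at 1913 to 2281 CPM in HFD mice and 1957 to 2394 CPM in treated mice (-0.0031, interval -0.23 to 0.22). For these 5 genes, a difference of 2-fold in either direction fell outside the interval. By contrast, *Por*, which passes electrons to the microsomal P450 enzymes, gave -0.13 with an interval of -1.36 to 1.11, and *Fdx1*, the electron carrier next to *Fdxr*, gave -0.14 with an interval of -1.32 to 1.04, both wider than that of *Star*.

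*Cyp11b2*, the aldosterone synthase, was at 263, 505, 273, and 314 CPM in HFD mice and 240, 279, 263, and 309 CPM in treated mice. HFD mouse 2 stood above the others. The log2 fold change was -0.31 (interval -0.78 to 0.15), and it was -0.057 without HFD mouse 2. *Mc2r*, the ACTH receptor, gave -0.12 (-0.39 to 0.16), and *Mrap*, its accessory protein, gave -0.44 with the wide interval of -1.63 to 0.75.

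**Figure D2:**
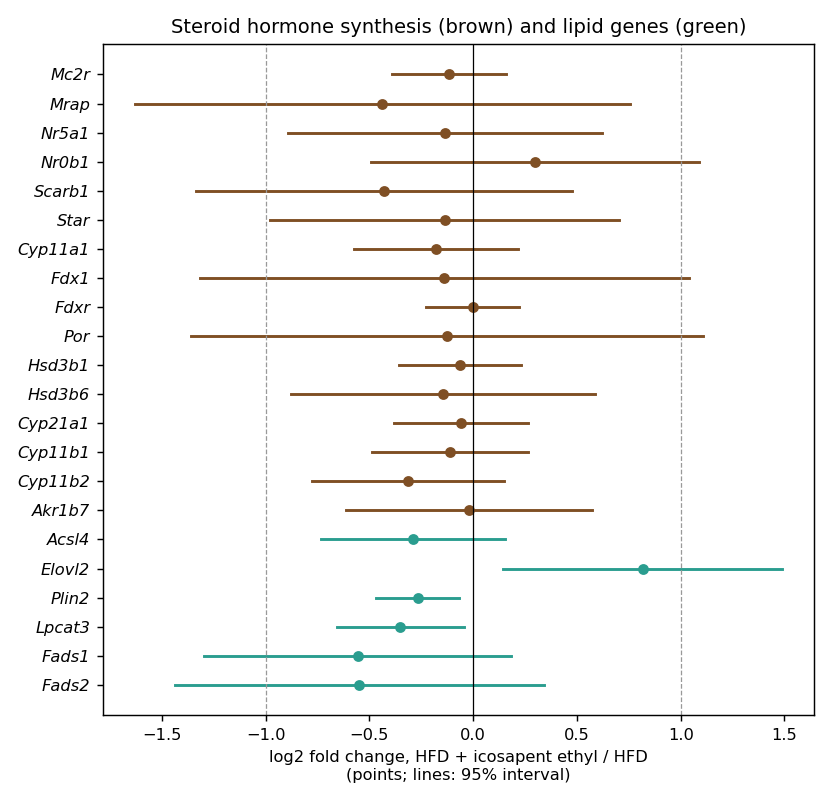
Log2 fold change of icosapent ethyl–treated over HFD mice (points) with its 95% interval (lines) for the 16 steroid hormone synthesis genes (brown) and 6 lipid genes (green); dashed lines mark a 2-fold difference. The intervals of Plin2 and Lpcat3 lie below 0 and that of Elovl2 above 0 before adjustment, while all 16 steroid synthesis genes cross 0.

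Nuclear genes of mitochondrial energy metabolism had the narrowest limits of all the lists, with a median half-width of 0.24 for both the TCA cycle and oxidative phosphorylation. In nuclear oxidative phosphorylation, 37 of 71 genes were higher and 34 lower, with a median of 0.01 and log2 fold changes between -0.11 and 0.13. All 71 intervals lay within 2-fold and 70 within 1.5-fold. *Ndufa5*, a complex I subunit, had the highest value (0.13, interval -0.14 to 0.41), and *Atp5b*, the catalytic subunit of ATP synthase, the lowest (-0.11, -0.36 to 0.14). In the TCA cycle, 5 of 28 genes were higher and 23 lower (median -0.04), with all 28 intervals within 2-fold and 26 within 1.5-fold. Of the 13 mitochondrially encoded proteins, 1 was higher and 12 were lower (median -0.15), 9 intervals lay within 2-fold, and none lay within 1.5-fold. Their median was 0.017 without HFD mouse 3 and -0.33 without HFD mouse 1. Among them, *mt-Co2*, *mt-Atp6*, *mt-Co3*, and *mt-Nd3* were counted far below *mt-Co1* and *mt-Cytb*, as given under other observations.

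In antioxidant and ferroptosis control, 6 of 28 genes were higher and 22 lower (median -0.09), and none was at an unadjusted p below 0.05 (3 with the replicate block). *Gpx4*, which reduces lipid peroxides, gave 0.02 with an interval of -0.34 to 0.37, and *Aifm2*, an antioxidant reductase also known as FSP1, gave -0.26 with an interval of -0.55 to 0.03. Of inflammatory cytokines and chemokines, 23 of 30 had enough counts to be tested. Of these, 15 were higher and 8 lower (median 0.06), with 1 at an unadjusted p below 0.05 and 2 with the replicate block. *Cxcl10*, an interferon-induced chemokine, was at 0.335, 0.779, 0.406, and 0.244 CPM in HFD mice and 0.730, 0.984, 1.13, and 0.697 CPM in treated mice (0.99, edgeR, unadjusted p = 0.0271). HFD mouse 2 overlapped with the treated mice.

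Of the 23 cell type marker lists, mesothelium had the highest median. Mesothelium is the thin epithelium that lines the abdominal cavity and covers organs, and its cells carry keratins and uroplakins. Of its 11 markers, 10 had enough counts to be tested, 9 of these were higher and 1 was lower, with a median log2 fold change of 1.45. None had an adjusted p below 0.05 by edgeR, 6 had an unadjusted p below 0.05 (8 with the replicate block), all higher, and 3 did not overlap between the groups. Of all 15913 genes, 0.672% were higher at an unadjusted p below 0.05, and 0.484% were higher without overlap. With the replicate block, 696 of all genes were at this level. *Muc16*, the untested member, had 77 counts over all 8 mice. Since only members with enough counts in some mice could be tested, these counts are not support for a difference.

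*Upk3b*, a uroplakin (chr5:136038496-136046487), was at 1.03, 1.12, 0.502, and 0.421 CPM in HFD mice and 13.9, 9.27, 1.90, and 3.06 CPM in treated mice. Treated mice 1 and 2 were the highest, and treated mice 3 and 4 still lay above all HFD mice. On the log2 scale, the fold change was 3.18 ± 0.67 (SE; interval 1.66 to 4.71, edgeR, unadjusted p = 0.00113). DESeq2 gave *Upk3b* an adjusted p of 0.000915. Over all the alternative fits, the log2 fold change lay between 2.61 (without treated mouse 1) and 3.50.

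*Upk1b*, a second uroplakin (chr16:38773184-38800328), was at 0.146, 0.171, 0.0956, and 0 CPM in HFD mice and 2.16, 2.12, 0.476, and 0.460 CPM in treated mice. In counts, these were 7, 9, 4, and 0 in HFD mice and 83, 82, 24, and 29 in treated mice. The groups did not overlap, and treated mice 1 and 2 were again the highest. *Upk1b* gave 3.61 ± 0.82 (SE, edgeR, unadjusted p = 0.00177), and the adjusted p by DESeq2 was 0.0113. All its HFD counts were below the minimum count of 10, so it entered the edgeR fit only through treated mice. Its p-values are therefore not support for a difference.

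Keratins followed the same mice. *Krt7* was at 0.188, 0.285, 0.215, and 0.133 CPM in HFD mice and 1.46, 1.24, 0.516, and 0.444 CPM in treated mice, without overlap (2.13 ± 0.48, SE). *Krt19* was at 2.66 and 2.23 CPM in treated mice 1 and 2 but at 0.258 and 0.333 CPM in treated mice 3 and 4, next to 0.114 to 0.272 CPM in HFD mice (2.76 ± 0.82, SE). *Krt8* gave 1.67 and *Gpm6a*, a neuronal and mesothelial membrane glycoprotein, gave 1.22, with overlap in both.

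Other members of the list differed less. *Msln*, mesothelin, was at 5.81 and 4.35 CPM in treated mice 1 and 2 and at 1.35 to 2.13 CPM in the other 6 mice (0.93, interval -0.05 to 1.90). *Wt1* gave 0.54 (-0.24 to 1.31), and *Lrrn4* was lower, at 12.8, 13.1, 9.85, and 18.7 CPM in HFD mice and 9.36, 10.5, 9.14, and 15.03 CPM in treated mice (-0.30, interval -0.83 to 0.23). The list summed to 20.4, 19.4, 16.0, and 22.6 CPM in HFD mice and 47.5, 37.3, 17.5, and 24.7 CPM in treated mice, so that the sums of treated mouse 3 fell among the HFD mice.

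*Pkhd1l1*, a large membrane protein that was outside the rule for named genes and was chosen after its values were seen, had the order of *Upk3b* among the treated mice (chr15:44457494-44601369). The gene had 4, 2, 2, and 2 counts in HFD mice and 44, 35, 17, and 24 counts in treated mice (3.67 ± 0.57, SE, edgeR, unadjusted p = 0.000128), with an adjusted p by DESeq2 of 0.000915. Since its HFD counts were all below the minimum count of 10, *Pkhd1l1* entered the edgeR fit only through treated mice. With that and its choice by its values, these p-values are not support for a difference. *Slpi*, a secreted protease inhibitor, was at 0.670, 1.52, 1.43, and 0.333 CPM in HFD mice and 7.45, 3.93, 3.91, and 1.68 CPM in treated mice (2.09 ± 0.56, SE). Treated mouse 1 was the highest in both, and no treated mouse overlapped with a HFD mouse. *Slpi* gave 1.68 without treated mouse 1. The part of mesothelial cells in these differences was not tested.

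**Figure D3:**
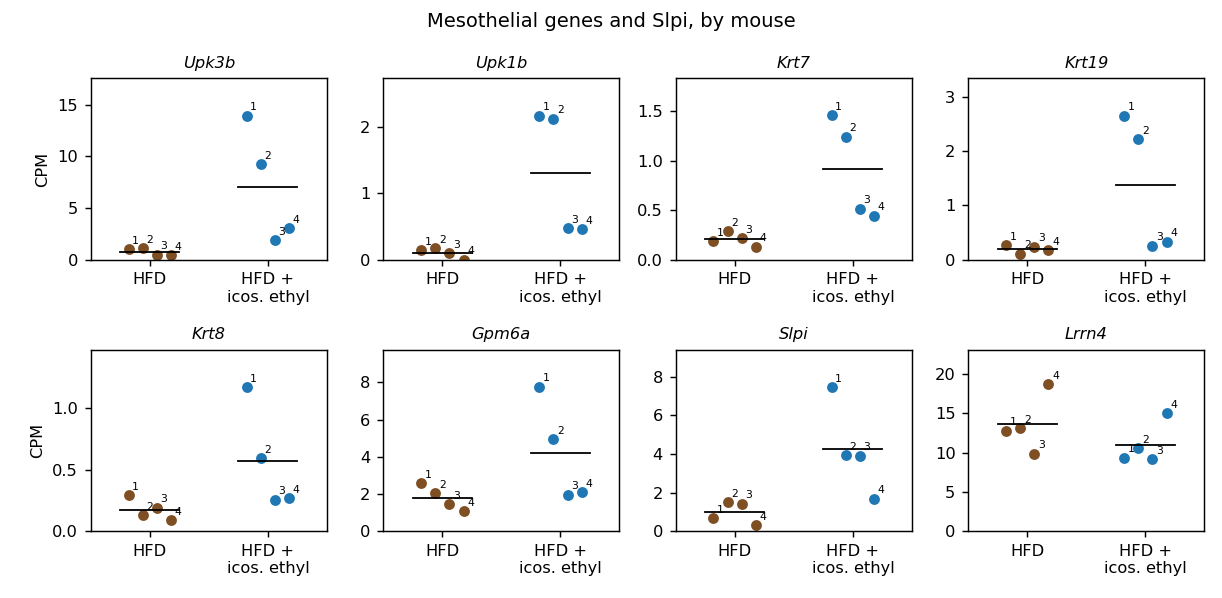
CPM per mouse of 7 mesothelial markers and Slpi, with the replicate number beside each point and the group mean as a line (y axes linear, starting at 0). Treated mice 1 and 2 are highest in Upk3b, Upk1b, Krt7, Krt19, Krt8, and Gpm6a, and Lrrn4 is lower on average in treated mice.

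All 17 chromaffin cell markers had a positive log2 fold change, with a median of 0.58 and a range of 0.27 to 0.72. None was at an unadjusted p below 0.05 (7 with the replicate block, beside 696 of all 15913 genes), and no interval lay within 2-fold. Their summed level was 10028, 3115, 8592, and 3225 CPM in HFD mice and 9271, 10754, 11010, and 5552 CPM in treated mice. HFD mice 2 and 4 were the lowest, and HFD mice 1 and 3 lay within the range of the treated mice. *Chga*, chromogranin A, was at 2992, 869, 2376, and 909 CPM in HFD mice and 2655, 3289, 3127, and 1575 CPM in treated mice (0.58, interval -0.39 to 1.54). *Th*, tyrosine hydroxylase, gave 0.31 (-0.64 to 1.26). Without HFD mouse 4, the median of the list was 0.35, and without HFD mouse 1, it was 0.85. With the chromaffin markers as a covariate, 106 genes had an unadjusted p below 0.05.

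Markers of Schwann cells and neurons, which also occur in the medulla, were higher in 10 of 11 members (median 0.51), none at an unadjusted p below 0.05 (3 with the replicate block). With the chromaffin markers as a covariate, this median was 0.086.

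In cortical zone markers, the zona fasciculata list was lower in 6 of 6 tested members (median -0.20, 0 at an unadjusted p below 0.05 and 1 with the replicate block) and the zona glomerulosa list in 8 of 11 (median -0.10). *Kcnk9*, a potassium channel of the zona glomerulosa, was at 153, 155, 111, and 123 CPM in HFD mice and 91.8, 77.7, 89.8, and 115 CPM in treated mice. Treated mouse 4 was above HFD mouse 3, and the other treated mice were below all HFD mice. The log2 fold change was -0.53 ± 0.15 (SE, edgeR, unadjusted p = 0.00638). *Kcnk3*, the second channel of this family in the list, did not follow it (-0.01, interval -0.27 to 0.25). Of the X zone, 1 of 4 markers could be tested, *Thrb* (-0.05), and *Akr1c18* had 13 counts over all 8 mice.

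Endothelial markers were lower in 9 of 12 members (median -0.16), with 1 at an unadjusted p below 0.05 (4 with the replicate block). *Tie1*, a receptor of vascular endothelium, was at 119, 140, 156, and 156 CPM in HFD mice and 122, 98.0, 126, and 120 CPM in treated mice (-0.29 ± 0.11, SE, edgeR, unadjusted p = 0.0317). *Kdr*, the VEGF receptor, gave -0.38 (interval -0.77 to 0.0048). In both genes, HFD mouse 1 was the lowest HFD mouse and lay within the range of the treated mice. Of pericyte and smooth muscle markers, 6 of 9 were higher (median 0.04). *Myh11*, smooth muscle myosin, was at 3.39 to 4.37 CPM in HFD mice and 4.49 to 7.53 CPM in treated mice, without overlap (0.47, edgeR, unadjusted p = 0.041), and *Rgs5*, a pericyte gene, gave 0.50 (edgeR, unadjusted p = 0.0402). Capsule and stroma markers were higher in 8 of 11 members (median 0.15, 3 at an unadjusted p below 0.05 with the replicate block), among them *Dcn*, decorin (0.22, interval -0.18 to 0.62).

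Adipocyte markers were lower in 10 of 14 members (median -0.16, 3 at an unadjusted p below 0.05 with the replicate block), and their sums overlapped, at 461 to 558 CPM in HFD mice and 425 to 531 CPM in treated mice. *Plin1* gave -0.31 (interval -0.77 to 0.14). *Cfd*, adipsin, was at 2.55, 2.51, 1.601, and 1.55 CPM in HFD mice and 5.47, 11.4, 1.41, and 2.58 CPM in treated mice (1.33, edgeR, unadjusted p = 0.0477), and it gave 0.61 without treated mouse 2. Treated mouse 3 was the lowest of the 8 mice in this gene. Brown adipocyte markers were lower in 4 of 6 members (median -0.38), with *Otop1* at an unadjusted p below 0.05 (-1.39, edgeR, unadjusted p = 0.0398), and *Ucp1*, the uncoupling protein of brown fat, spread from 0.119 to 3.47 CPM among treated mice and from 0.789 to 4.75 CPM among HFD mice.

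Macrophage markers were higher in 8 of 11 tested members (median 0.05). *Mrc1*, the mannose receptor, was at 28.6, 28.7, 38.8, and 30.2 CPM in HFD mice and 23.2, 20.6, 28.2, and 28.0 CPM in treated mice, without overlap (-0.34, edgeR, unadjusted p = 0.0467), whereas *C1qb*, a complement component of macrophages, gave 0.11 (interval -0.10 to 0.31). Markers of lipid-associated macrophages were higher in 10 of 12 members (median 0.38). *Gpnmb*, a lysosomal glycoprotein of these cells, was at 38.3, 7.32, 15.4, and 7.07 CPM in HFD mice and 4.93, 91.1, 22.8, and 20.0 CPM in treated mice. Treated mouse 2 was the highest in *Gpnmb* and treated mouse 1 the lowest, and without treated mouse 2 the median of the list was 0.0056.

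The remaining marker lists had no member at an unadjusted p below 0.05. With the replicate block, 2 B and plasma cell markers, 2 dendritic cell and MHC class II markers, and 1 erythroid marker were at this level. T and NK cell markers were higher in 9 of 12 members (median 0.09), B and plasma cell markers in 6 of 8 (0.15), mast cell markers in 5 of 6 (0.26), dendritic cell and MHC class II markers in 4 of 9 (-0.01), and neutrophil markers in 0 of 4 (-0.03). Erythroid markers were higher in 7 of 7 members (median 0.11), and all 7 intervals lay within 2-fold. Proliferating cell markers were lower in 10 of 11 members (median -0.18). Of tissues next to the adrenal gland, 2 of 9 kidney tubule markers and 4 of 8 hepatocyte markers had enough counts to be tested, as did 4 of 8 skeletal muscle markers, with medians of -0.35, 0.44, and 0.16. *Umod*, a defining marker of kidney tubule, had 0 counts in all 8 mice.

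**Figure D4:**
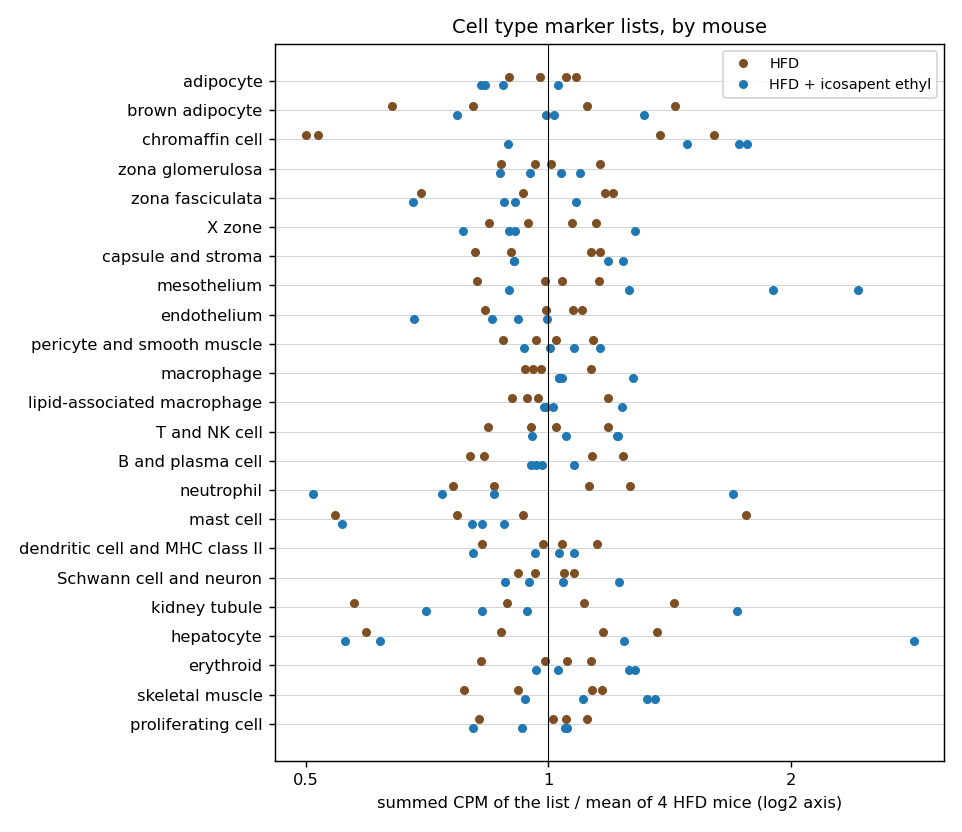
Summed CPM of each cell type marker list per mouse, divided by the mean of the 4 HFD mice (log2 axis; brown, HFD mice; blue, icosapent ethyl–treated mice). Mesothelium reaches 47.5 CPM in treated mouse 1 against 16.0 to 22.6 CPM in HFD mice, the chromaffin sums of HFD mice 2 and 4 are lowest, and most other lists overlap.

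By the rule for named genes, the 10 higher and 10 lower genes with the lowest unadjusted p among those without overlap were examined. *Rsrp1*, an arginine- and serine-rich protein (chr4:134923592-134927671), was at 38.3, 35.7, 40.7, and 41.5 CPM in HFD mice and 57.4, 65.3, 52.9, and 56.1 CPM in treated mice. The mice within each group lay close together. Their log2 fold change was 0.57 ± 0.092 (SE; interval 0.36 to 0.78, edgeR, unadjusted p = 0.000171), and DESeq2 gave an adjusted p of 0.00111. *Rsrp1* was at 70.2 ± 32.4 CPM (SD, n = 4) in LFD mice, a spread wider than in either HFD group.

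*Mettl27*, a methyltransferase-like gene, was at 20.9, 19.8, 19.3, and 20.4 CPM in HFD mice and 24.4, 26.7, 27.7, and 26.7 CPM in treated mice (0.39 ± 0.089, SE, edgeR, unadjusted p = 0.00176). DESeq2 gave it an adjusted p of 0.0248. *Serpina5*, a serine protease inhibitor, was at 1.004 to 1.34 CPM in HFD mice and 1.86 to 2.54 CPM in treated mice (0.91), and its adjusted p by DESeq2 was 0.0708. The other higher genes were *Rnf17* (1.03), *Ms4a4b* (0.83), *Izumo4* (0.62), and *Drd4*, a dopamine receptor (0.76), beside *Upk3b*, *Upk1b*, and *Slpi*. Over all the alternative fits, *Rsrp1* lay between 0.51 and 0.64 and *Mettl27* between 0.37 and 0.45.

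The lower genes differed by less than 2-fold with 2 exceptions. *Ggcx*, the carboxylase that uses vitamin K, was at 73.0, 76.7, 73.1, and 76.8 CPM in HFD mice and 60.1, 60.03, 59.99, and 65.3 CPM in treated mice (-0.29 ± 0.065, SE, edgeR, unadjusted p = 0.00179). *Palld*, an actin-associated protein, was at 65.6 to 94.8 CPM in HFD mice and 51.0 to 61.2 CPM in treated mice (-0.52). *Cited2*, a transcriptional coregulator of adrenal development, was at 125, 137, 187, and 164 CPM in HFD mice and 122, 79.7, 85.4, and 100 CPM in treated mice (-0.66 ± 0.17, SE, edgeR, unadjusted p = 0.00343).

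The exceptions were *Myh1*, a skeletal muscle myosin (-1.13), and *Stra6*, the receptor for retinol-binding protein (-1.09), both at 4.19 CPM or less in every mouse. *Ccr1*, a chemokine receptor, gave -0.53, *P4ha1*, a prolyl hydroxylase of collagen, -0.26, *Ephb4*, an ephrin receptor, -0.28, *Nol6*, a nucleolar protein, -0.26, and *Mamld1* -0.46. *Mamld1* gave -0.29 without HFD mouse 3, which was at 67.2 CPM beside 44.0 to 46.4 CPM in the other HFD mice.

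Of the 7 genes that DESeq2 called, 2 were lower and had too few counts for the edgeR fit. *Ighv8-12*, an immunoglobulin heavy chain variable segment, had 14, 12, 23, and 3 counts in HFD mice and 0 in each treated mouse (adjusted p by DESeq2 0.0115). *Capn11*, a calpain protease, had 66, 15, 43, and 4 counts in HFD mice and 0, 0, 0, and 2 counts in treated mice (adjusted p by DESeq2 0.0150). Both were chosen after their values were seen. Reads of one variable segment can be shared with others of its family, so the identity of the segment is uncertain. *Sgk1*, a kinase induced by corticosteroids and also chosen after its values were seen, was at 200, 164, 237, and 216 CPM in HFD mice and 152, 122, 168, and 148 CPM in treated mice. HFD mouse 2 overlapped with treated mouse 3. *Sgk1* gave -0.47 ± 0.13 (SE, edgeR, unadjusted p = 0.0071) and -0.47 ± 0.064 (SE, unadjusted p = 0.00021) with the replicate block. Its adjusted p by edgeR with the block was 0.836, and the labels do not give equal replicate numbers as pairs. A relation of *Sgk1* to corticosteroid levels was not tested.

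The spread between mice of one group was large in immediate early genes, which cells transcribe within minutes of a stimulus such as cAMP. The median within-group SD over all genes was 0.27 on the log2 scale, and the 10 genes with the largest SD were *Fosl1*, *Ly6k*, *Fos*, *Junb*, *Sik1*, *Nr4a2*, *Maff*, *Plk3*, *Cxcr4*, and *Rasd1*. *Fos* was at 419, 313, 12.1, and 14.7 CPM in HFD mice and 310, 325, 27.7, and 9.92 CPM in treated mice. Mice 1 and 2 were high and mice 3 and 4 low in both groups. In LFD mice, *Fos* was at 9.48 ± 2.13 CPM (SD, n = 4). The log2 fold change between treated and HFD mice was -0.17, with an interval of -3.16 to 2.81.

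*Maff* showed the opposite order, at 6.97, 14.0, 152, and 106 CPM in HFD mice and 10.999, 3.68, 100, and 87.0 CPM in treated mice. *Crem*, a cAMP-responsive regulator, followed *Maff*, at 112, 119, 762, and 779 CPM in HFD mice and 75.7, 40.1, 677, and 694 CPM in treated mice. Mice 3 and 4 were high in both groups for these genes. *Nr4a2*, an orphan nuclear receptor, had another order, with 308 CPM in HFD mouse 2 and 836 CPM in treated mouse 3. Its log2 fold change was 1.11 with all mice and -0.85 without treated mouse 3.

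Over the immediate early response list, 5 of 23 genes were higher and 18 lower (median -0.17), with log2 fold changes from -1.53 for *Fosl1* to 1.11 for *Nr4a2*. The median was -0.42 without HFD mouse 4 and 0.087 without HFD mouse 1. None was at an unadjusted p below 0.05 (1 with the replicate block), and the intervals of 3 genes lay within 2-fold. These were *Jun*, *Jund*, and *Klf6*. With the mean of this list as a covariate, 366 genes had an unadjusted p below 0.05.

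**Figure D5:**
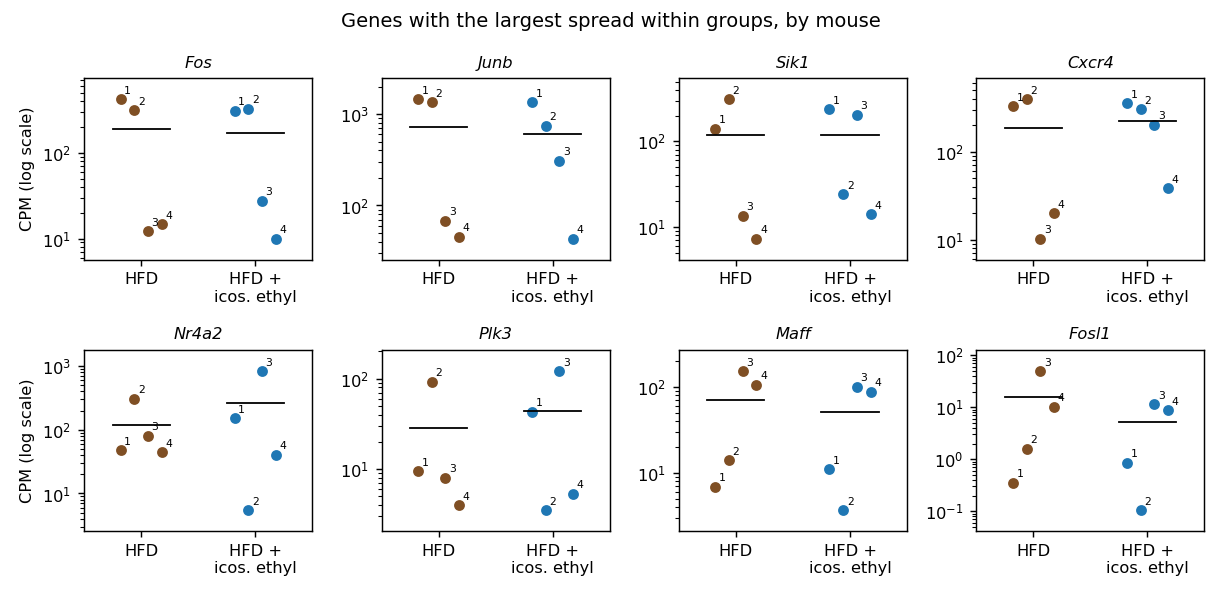
CPM per mouse (log scale) of 8 of the 10 genes with the largest within-group spread, with the replicate number beside each point and the group mean as a line. Fos and Junb are highest in mice 1 and 2 of both groups, Maff and Fosl1 in mice 3 and 4 of both groups, and Nr4a2 and Plk3 in HFD mouse 2 and treated mouse 3.

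Promoters of 3 such genes are shown because these genes share the full cAMP response element but had different orders over the mice. The element, the palindrome TGACGTCA, which reads the same on both strands, was looked for in the 250 bases before each gene start that RefSeq gives (GRCm38.p6). It was found in 3 of the 23 windows of the 17 immediate early genes with a window, and in 1.55% of all 32851 windows. The last 200 bases before the gene start follow, with the element in capitals.
Btg2: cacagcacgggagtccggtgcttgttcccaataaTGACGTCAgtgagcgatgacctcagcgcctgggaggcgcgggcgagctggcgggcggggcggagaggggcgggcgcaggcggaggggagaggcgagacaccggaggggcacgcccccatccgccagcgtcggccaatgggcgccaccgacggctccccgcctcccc
Dusp1: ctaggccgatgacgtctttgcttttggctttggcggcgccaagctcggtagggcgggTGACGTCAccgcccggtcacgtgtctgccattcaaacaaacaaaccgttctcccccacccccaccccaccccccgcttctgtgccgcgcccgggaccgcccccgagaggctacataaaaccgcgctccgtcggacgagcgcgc
Maff: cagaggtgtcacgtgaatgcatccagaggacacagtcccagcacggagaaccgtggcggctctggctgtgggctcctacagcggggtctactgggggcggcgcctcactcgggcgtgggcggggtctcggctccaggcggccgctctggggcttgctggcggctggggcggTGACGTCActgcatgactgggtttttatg

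The window of *Btg2* is chr1:134079156-134079355 on the minus strand, that of *Dusp1* chr17:26508473-26508672 on the minus strand, and that of *Maff* chr15:79347320-79347519 on the plus strand, where it is 1 of 3 windows listed. These RefSeq starts differ from the gene starts of GENCODE M21, which gave the gene coordinates above. The offset was -35 bases for *Btg2*, 899 for *Maff*, and 53656 for *Dusp1*, with positive values downstream. *Btg2*, an antiproliferative gene, was at 922, 876, 80.6, and 45.8 CPM in HFD mice and 882, 347, 257, and 48.0 CPM in treated mice. *Dusp1*, a phosphatase of MAP kinases, was at 255, 171, 29.3, and 36.0 CPM in HFD mice and 145, 261, 54.4, and 31.7 CPM in treated mice. Both were high where *Fos* was high, but *Btg2* was also at 257 CPM in treated mouse 3, where *Fos* was at 27.7 CPM. *Maff*, with the same element, was high where *Fos* was low. The match of letters is a description and does not show that a factor was bound there.

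The first principal component of log2 CPM took 51.7% of the variance over 13381 genes and separated mice within both groups. HFD mice 1 to 4 lay at -30.0, -10.3, 33.4, and 39.9, and treated mice 1 to 4 at -26.5, -37.2, 0.30, and 30.3. Genes at its low end included *Fos*, *Junb*, and *Cxcr4*, and genes at its high end included *Fosl1*, *Maff*, and *Crem*. The groups thus overlapped along the direction of largest variance, and the numbers 1 and 2 lay at one end in both groups. Whether the replicate numbers mark a shared time or procedure is not given by the labels.

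Beside LFD mice, some of the named genes of treated mice were between the other groups, and others were not. These values come from one fit of all 12 mice, and the comparisons with LFD mice share their HFD or LFD mice with each other. For *Plin2*, the log2 fold change against LFD mice was 0.50 in HFD mice (edgeR, adjusted p = 0.0299) and 0.23 in treated mice (adjusted p = 0.274). For *Cited2*, these were 1.07 (adjusted p = 0.0294) and 0.41 (adjusted p = 0.348), and for *Nol6* 0.51 (adjusted p = 0.0231) and 0.25 (adjusted p = 0.209). *Cited2* and *Nol6* were named for being lower in treated than in HFD mice, a choice that favours such an order. Of the other lower genes named by that rule, *Palld*, *Ccr1*, and *Mamld1* also lay between, whereas *Ggcx*, *Myh1*, *Stra6*, *Ephb4*, and *P4ha1* did not. Of the higher genes, whose choice favours such an order too, *Rsrp1*, *Izumo4*, *Drd4*, and *Ms4a4b* lay between. *Upk3b*, *Upk1b*, *Slpi*, *Serpina5*, *Mettl27*, and *Rnf17* did not.

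For *Acsl1*, both log2 fold changes against LFD mice passed, at 0.77 (adjusted p = 0.00869) and 0.61 (adjusted p = 0.0441). For *Fads2*, they were 1.24 (adjusted p = 0.0702) and 0.69 (adjusted p = 0.393), and for *Acsl4* 0.78 (adjusted p = 0.0557) and 0.49 (adjusted p = 0.290). *Upk3b* was at 1.01 ± 1.27 CPM (SD, n = 4) in LFD mice and gave -0.38 in HFD mice and 2.80 in treated mice (adjusted p = 0.188). A value that passes against LFD mice in one group and not in the other does not show that the groups differ, and the direct comparison of treated with HFD mice called none of these genes by edgeR.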

How the data were processed

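The deposited values are whole-number counts of reads for each gene and mouse, which the authors did not normalize. According to the study's methods and the submitters' processing notes, adaptors were removed with cutadapt, reads were aligned to GRCm38 with STAR, and HTSeq 0.6.1p1 counted them on GENCODE M12 genes in reverse-strand mode with a minimum alignment quality of 20. Symbols and coordinates of 49326 of 49585 genes came from GENCODE M21, and 0 rows named no gene. The test was edgeR (version 4.0.16, R version 4.3.3; TMM scaling, filterByExpr with a minimum count of 10, robust quasi-likelihood fit, two-sided, Benjamini-Hochberg, threshold 0.05) of the counts in the 8 mice without covariates. Intervals are 95% intervals from the same fit, with SE as the absolute log2 fold change divided by the square root of F. The procedure was tested on simulated counts that had the same variability parameter for all genes and no variation shared between genes. That simulation does not cover the spread shared by many genes in these mice.

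The comparison, the 15 pathway lists, and the 23 marker lists were chosen with earlier results of these data known, so the lists are described by counts and medians and were given no test. Named genes are *Acsl4*, *Elovl2*, *Plin2*, *Lpcat3*, *Fads1*, *Fads2*, the steroid hormone synthesis list, the 10 higher and 10 lower genes with the lowest unadjusted p among genes without overlap that have an assigned symbol and reach a mean of 1 CPM in a group, the 2 most abundant members of each marker list and those at an unadjusted p below 0.05, the 3 members of each pathway list with the lowest p, and the 10 genes of largest within-group SD at a mean of at least 5 CPM. Other list members are given as examples and were chosen after their values were seen.

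Mice carry the numbers 1 to 4 in each group. After subtraction of the group means, mice with equal numbers had correlations of 0.254, 0.122, 0.354, and 0.655. All were above 0.1, so the replicate block is given where it moves a count. However, HFD mouse 1 correlated more with treated mouse 2 (0.621), HFD mouse 2 with treated mouse 1 (0.474), and HFD mouse 3 with treated mouse 4 (0.388). These correlations thus do not single out mice of equal number as pairs. The labels do not say that the numbers mark pairs. Alternatives were DESeq2 1.42.0, limma 3.58.1 (voom with sample quality weights), other scalings and filters, all 12 mice in one fit, a threshold of 0.1, a limit of 0.3 on the absolute log2 fold change, the replicate block, 3 covariates (adipocyte, chromaffin, and immediate early lists), and leaving out each mouse.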

Additional observations from a re-analysis of the deposited data

Results flagged for a closer look

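Among 324 groups of 4 mice (the 139 named genes and the 23 marker sums, in each diet group), 16 held a mouse far from the other 3 by Dixon's test, which chance gives in about 1 of 20 groups. In HFD mouse 2, *Nr4a2* was at 308 CPM beside 44.1 to 80.7 CPM in the other HFD mice, *Plk3* at 92.4 CPM beside 3.97 to 9.44 CPM, and *Nkg7*, a granule protein of cytotoxic lymphocytes, at 1.16 CPM beside 0.754 to 0.816 CPM. HFD mouse 3 had *Mamld1* at 67.2 CPM, above 44.0 to 46.4 CPM, and *Mrc1* at 38.8 CPM, above 28.6 to 30.2 CPM. HFD mouse 4 had *Nol6* at 92.6 CPM, below 100 to 101 CPM. HFD mouse 1 had *Dlst*, a subunit of the oxoglutarate dehydrogenase complex, at 216 CPM, below 240.3 to 244 CPM.

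In treated mouse 2, the macrophage markers summed to 697 CPM and the lipid-associated macrophage markers to 599 CPM, beside 564 to 570 CPM and 480 to 492 CPM in the other treated mice. *Lyz2*, a lysozyme of myeloid cells, was at 324 CPM in that mouse beside 201 to 215 CPM, and *Mboat7* at 74.5 CPM beside 66.9 to 68.0 CPM. In treated mouse 4, *Lpcat3* was at 94.7 CPM beside 76.2 to 79.0 CPM, *Ggcx* at 65.3 CPM beside 59.99 to 60.1 CPM, *Pdk4* at 10.1 CPM beside 6.29 to 6.94 CPM, and *Apoa2*, an apolipoprotein, at 2.25 CPM beside 0.521 to 0.734 CPM. Treated mouse 1 had *Scap*, the escort protein of SREBPs, at 183 CPM, above 139 to 147 CPM.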

How the results depend on the processing

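No gene had an adjusted p below 0.05 in any alternative except DESeq2, which called 7 genes. The number at an unadjusted p below 0.05 was 221 in the reported test, 400 with DESeq2, 539 with voom and quality weights, 458 without a filter, 696 with the replicate block, 106 with the chromaffin covariate, 366 with the immediate early covariate, and 134 (without treated mouse 2) to 877 (without HFD mouse 1) when each mouse was left out. It was 138 without HFD mouse 4 and 623 without treated mouse 4. The cause was not tested. The share of genes with an interval within 2-fold was 49.1% with DESeq2 and 47.9% without a filter, and within 1.5-fold 33.8% and 32.2%, where more genes of low count were tested. Of 684 list medians over these fits, 678 moved by less than the spread between mice. The others were fatty acid uptake and activation (-0.037 on library totals, -0.158 to -0.047 with a mouse left out), inflammatory genes (-0.125 with the chromaffin covariate), pericyte and smooth muscle (0.255 with voom), and Schwann cell and neuron (0.086 with the chromaffin covariate). Medians near 0 turned sign without 1 mouse in fatty acid oxidation (0.0047 without HFD mouse 3), eicosanoid synthesis (0.021, HFD mouse 3), oxidative phosphorylation (-0.047, HFD mouse 1), inflammatory genes (-0.012, HFD mouse 4), pericyte and smooth muscle (-0.13, treated mouse 1), B and plasma cell (-0.00064, HFD mouse 3), neutrophil (0.18, treated mouse 1), and dendritic cell and MHC class II (0.081, treated mouse 2).

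Of 2630 fits of named genes, 142 turned their sign. Of these, 10 also differed from the reported value by more than 1 SE, none of them called. With a mouse left out, the ranges were -2.23 to 0.38 for *Fosl1*, -1.56 to 1.18 for *Ly6k*, -0.85 to 2.17 for *Nr4a2*, and -0.71 to 2.60 for *Plk3*. They were -0.21 to 0.097 for *Tagln*, -0.11 to 0.30 for *Mbp*, and -0.17 to 0.79 for *Apoa2*. The others were *Junb* (1.30 with voom) and *Kcnk3* and *Cd74* (0.11 and 0.076 with the chromaffin covariate). The replicate block changed no call. Depth and 4 mice per group limit genes below 1 CPM most.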

Other observations

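Counts of the mitochondrially encoded genes differed by position, and whether this reflects transcript levels or the counting of reads was not tested. *mt-Co1* was at 5619 to 11485 CPM and *mt-Cytb* at 2476 to 4910 CPM over the 8 mice, whereas *mt-Co2*, *mt-Atp6*, *mt-Co3*, and *mt-Nd3*, which neighbour each other between chrM:7013 and chrM:9806, were each at 7.67 CPM or less.

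Hepatocyte markers summed to 30.5 CPM in treated mouse 4 and to 5.98 to 14.6 CPM in the other 7 mice. *Ttr*, transthyretin, was at 1.28 CPM in that mouse and at 0.337 CPM or less in the others.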
